A study of Mus musculus with 5 samples.

Results

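The genes described here are the secreted and membrane-bound metalloproteases that cut extracellular matrix, with their dedicated inhibitors, in the embryonic mouse heart at E10.5. They were taken from the array annotation by name: every probe set whose symbol begins with Adamts or Mmp and a digit, or with Adamtsl, or is Timp1 to Timp4. The rule gave 49 probe sets, each of a different gene, among 24479 probe sets and 23279 named genes. There were 18 Adamts, 5 Adamtsl, 22 Mmp and 4 Timp genes. The rule itself uses no measured value.

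The study measured total RNA on Affymetrix arrays in 2 hearts or heart samples of genotype KO and 3 of genotype control, all untreated and all at E10.5. The series title names Lrrfip2, an actin-regulator-binding protein, and its part in the response to hypoxia while the heart forms. The labels do not say which part of Lrrfip2 is missing or in which cells, whether controls are wild type or heterozygous, or how many hearts went into a sample. The p-values below therefore measure the spread between these 5 samples, which may be partly technical. Replicates are numbered in the order of deposit and are not paired between the groups.

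Matrix metalloproteases (MMPs) are zinc enzymes made as inactive precursors, and most are secreted while a few are held in the cell membrane. ADAMTS enzymes are related secreted proteases with thrombospondin repeats, several of which cut the large proteoglycan versican. In the embryonic heart, versican and hyaluronan fill the cardiac jelly between muscle and endocardium, and its removal goes with trabeculation and with remodelling of the cushions that become valves. ADAMTS-like proteins keep the repeats but have no catalytic domain, and the tissue inhibitors of metalloproteases (TIMPs) block the active site of MMPs.

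All levels are given in log2 RMA units, and each difference is the KO mean minus the control mean in those units. The level of a probe set depends on its probes as well as on the transcript, so levels are compared between arrays and not between genes. In whole hearts, fewer cells of a type and less RNA per cell cannot be told apart. Genes with a mean level under the 40th percentile of all genes (log2 4.44) were flagged as dim and left out of the test.

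Several arrays stood apart. The targeted gene, Lrrfip2, was at 6.36 and 6.22 on the KO arrays, against 7.33, 8.07 and 8.08 on the control arrays, without overlap. All 10 heart muscle markers passed the dim level, and their mean was 11.2 and 11.1 on the KO arrays and 11.2 on each control array. KO replicate 2 carried liver and gut endoderm transcripts: the mean of 14 such markers was 7.59 there, 4.57 in KO replicate 1 and 4.60 to 4.64 in controls. KO replicate 1 had a lower mean of 11 cushion mesenchyme markers, 6.71, against 7.21 in KO replicate 2 and 7.03 to 7.36 in controls. Its mean over 11 macrophage and myeloid markers was 5.19, against 4.73 in KO replicate 2 and 4.67 to 4.77 in controls. Y-linked transcripts were present in control replicate 1 alone among the 5 arrays, with a mean level of 7.02 over 3 genes against 2.72 to 2.99 elsewhere. Control replicate 3 had the highest mean of 7 red cell markers, 9.66, against 8.39 to 8.98 on the other arrays. Differences without each KO array are given below for Timp1, Timp2, Timp3, Adamts1, Adamts9, Mmp2 and Mmp14.

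Of the 49 members, 29 were tested and 20 were dim. Tested members numbered 12 of 18 Adamts, 4 of 5 Adamtsl, 10 of 22 Mmp and 3 of 4 Timp genes. Just inside the limit lay Mmp17 (4.46) and Mmp10 (4.48), and just outside lay Mmp25 (4.19) and Mmp28 (4.18). The deposited values hold exact ties: 17 of the 29 tested members repeated a value between arrays, 58.6% beside 54.8% of all tested genes. Adamts14 and Adamts19 had the same value on all 5 arrays, so no difference could be read for them.

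**Figure D1:**
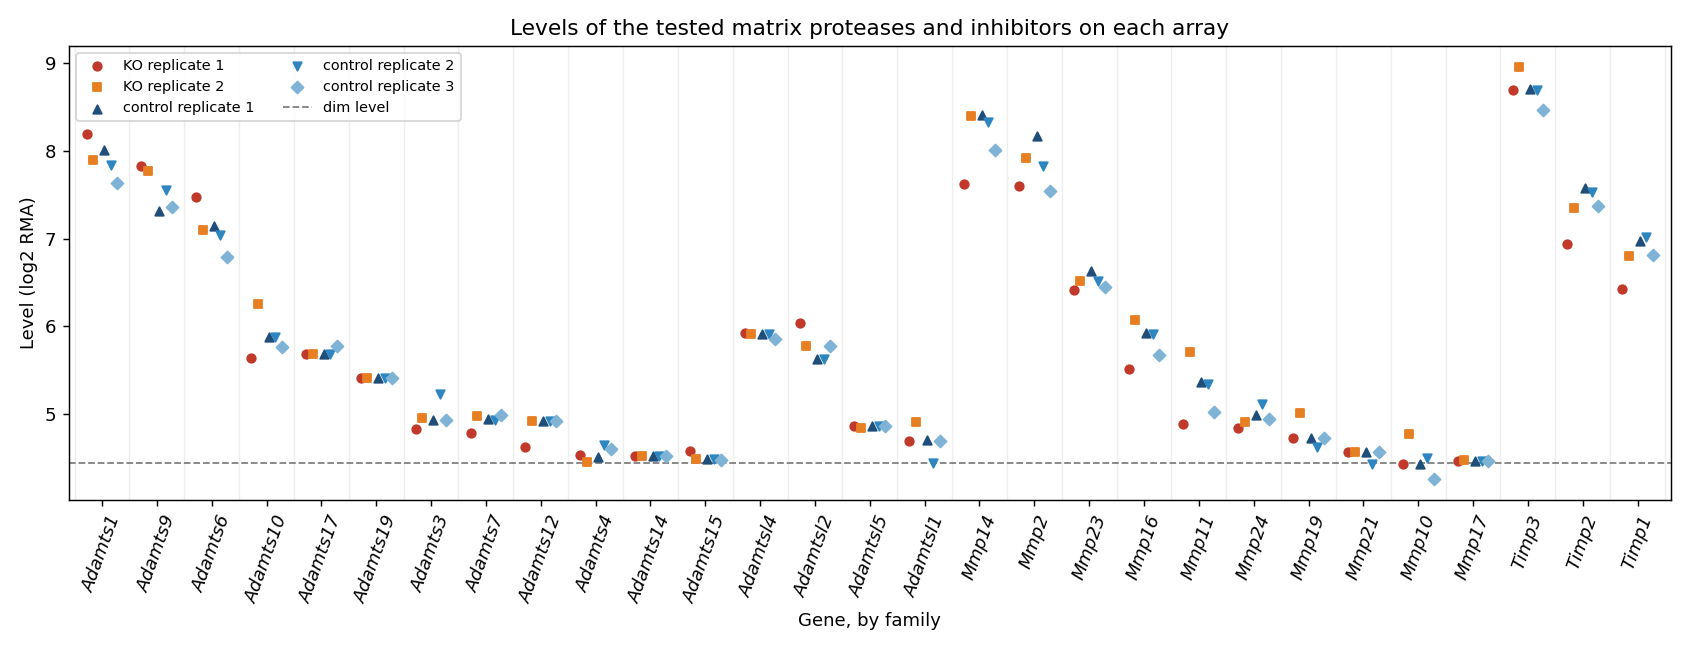
Level (log2 RMA) of the 29 tested members on each of the 2 KO and 3 control arrays, by family, with the dim level of 4.44 as a dashed line. Both KO points lie above the control points for Adamts9, and below them for Timp1, Timp2 and Mmp24.

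Among the inhibitors, the means of Timp1 and Timp2 were lower in KO hearts and that of Timp3 was higher, and each interval included 0. Timp2, which inhibits MMPs and also helps MMP14 to activate MMP2, was at 6.93 and 7.35 on the KO arrays, against 7.58, 7.53 and 7.37 on the control arrays. Both KO values lay below the controls, but KO replicate 2 missed the lowest control only narrowly. Of all tested genes, 13.1% lay below the controls on both KO arrays. The mean was 7.14 ± 0.30 in KO and 7.49 ± 0.11 in control hearts (SD, n = 2 and 3), a difference of -0.35 ± 0.15 (SE) with an interval of -0.78 to 0.07. In limma its unadjusted p was 0.083 and its adjusted p 0.57.

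Timp1, an X-linked secreted inhibitor, was also lowest in KO replicate 1. It was at 6.42 and 6.80 in KO hearts, and at 6.97, 7.01 and 6.81 in control hearts. The groups did not overlap, although the gap between KO replicate 2 and control replicate 3 was small. The difference was -0.32 ± 0.14 (SE), with a 95% interval of -0.71 to 0.07 and an adjusted p of 0.57 in limma. Without KO replicate 1 the differences shrank to -0.14 for Timp2 and -0.13 for Timp1, and without KO replicate 2 they were -0.56 and -0.50. KO replicate 1 is the array with the low cushion mesenchyme list, of which 8 of 11 markers were lower in KO hearts, and the part of those cells in the Timp1 and Timp2 values was not tested.

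Timp3, which binds to the matrix and inhibits ADAMTS enzymes as well as MMPs, was at 8.69 and 8.96 in KO hearts, against 8.71, 8.69 and 8.46 in control hearts. KO replicate 1 thus lay within the control range and KO replicate 2 above it. The difference was 0.21 ± 0.13 (SE), with an interval of -0.15 to 0.56 and an adjusted p of 0.57 in limma. It was 0.34 without KO replicate 1, 0.07 without KO replicate 2 and 0.13 without control replicate 3. Timp4, the inhibitor known mainly from adult heart, was dim on every array, at 3.88 and 3.72 in KO hearts and 3.57, 3.64 and 3.64 in control hearts. Its groups did not overlap, with both KO arrays above all controls, as for 8.18% of tested genes. The share among dim genes was not counted. A fit without the dim filter gave 0.18 ± 0.06 (SE) with an unadjusted p of 0.043 and an adjusted p of 0.665 in limma.

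Among the versican-cleaving ADAMTS genes, Adamts9 had the clearest difference of any member. It encodes a large secreted protease that cuts versican in developing mouse heart. Its level was 7.83 and 7.77 in KO hearts, against 7.32, 7.56 and 7.35 in control hearts. Both KO arrays lay above all controls, and they differed from each other by less than the controls did. The mean was 7.80 ± 0.04 in KO and 7.41 ± 0.13 in control hearts (SD, n = 2 and 3).

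The Adamts9 difference was 0.39 ± 0.09 (SE), a 1.31-fold higher level, with a 95% interval of 0.14 to 0.64. Its unadjusted p in limma was 0.012, and its adjusted p over all genes was 0.434, so it did not pass. Without KO replicate 1 the difference was 0.36 and without KO replicate 2, the array with endoderm transcripts, it was 0.42. In both of those fits, with array weights and with the endoderm level as a covariate, its unadjusted p was above 0.05, and over all 14 alternatives it ran from 0.00214 to 0.0966. Beside it, 10 endothelial and endocardial markers had a mean of 8.32 and 8.01 in KO hearts, against 8.12, 8.04 and 7.88 in control hearts. Of these, 6 were higher and 4 lower in KO hearts, and 1 in each direction had an unadjusted p under 0.05 in limma. Kdr, the main VEGF receptor, had a difference of 0.60 (unadjusted p 0.013, adjusted p 0.434). Nfatc1, a transcription factor of the endocardium, had one of -0.35 (unadjusted p 0.044, adjusted p 0.552). Whether endothelial cell content took part in the Adamts9 value was not tested.

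Adamts1, a versican-cleaving protease linked to the end of trabecular growth in mouse heart, overlapped between the groups. It was at 8.19 and 7.89 in KO hearts, and at 8.01, 7.84 and 7.63 in control hearts. The difference of 0.22 ± 0.16 (SE) had an interval of -0.22 to 0.66 and an adjusted p of 0.576 in limma. Its size rested on single arrays, being 0.07 without KO replicate 1, 0.37 without KO replicate 2 and 0.12 without control replicate 3. Adamts4, an aggrecan- and versican-cleaving enzyme, lay near the dim level at 4.53 and 4.45 in KO hearts and 4.50, 4.65 and 4.59 in control hearts. Its difference was -0.09 ± 0.06 (SE), with an interval of -0.26 to 0.08. Adamts15, of the same clade, was at 4.58 and 4.49 in KO hearts and at 4.49, 4.49 and 4.47 in control hearts, a range too narrow to place the groups apart.

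Adamts5 and Adamts20, also proteoglycan-cleaving enzymes, were dim. Adamts5 was at 3.70 and 4.08 in KO hearts, against 4.11, 4.08 and 4.18 in control hearts. Adamts20 was at 3.51 and 3.50 in KO hearts, against 3.55, 3.77 and 3.55 in control hearts. The KO values of both genes lay below the controls by small margins, at levels where many probe sets carry little signal, and they were not tested. Among tested genes 13.1% lay below all controls on both KO arrays, and the share among dim genes was not counted. The substrate Vcan was at 11.38 and 10.83 in KO hearts, against 11.06, 11.04 and 11.06 in control hearts, so that the KO arrays lay on opposite sides of the controls.

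The remaining tested ADAMTS genes differed by -0.15 to 0.29 between the groups, and their groups overlapped. Adamts6, which with Adamts10 acts on fibrillin microfibrils, had the upper end of that range (0.29 ± 0.17, SE, interval -0.18 to 0.77). Adamts3, a procollagen N-proteinase that also activates VEGF-C, had a difference of -0.14 (interval -0.48 to 0.20). Adamts12 and Adamts7, which cut cartilage oligomeric matrix protein, had -0.15 and -0.07. For Adamts12 the value was 4.62 in KO replicate 1 and an identical 4.92 on the other 4 arrays. Adamts17 was 5.68 on both KO arrays and on 2 control arrays.

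Among the ADAMTS-like genes, which encode matrix proteins without protease activity, 3 of the 4 tested had higher and 1 lower mean values in KO hearts, and 0 had an unadjusted p under 0.05 in limma. Adamtsl2, a fibrillin-binding protein, differed by 0.23 ± 0.11 (SE, interval -0.06 to 0.52). Adamtsl1 differed by 0.19, Adamtsl4 by 0.02 and Adamtsl5 by -0.01. Adamtsl3 was dim.

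Mmp14 and both gelatinases overlapped between the groups. Mmp14, the membrane protease that activates MMP2 and cuts collagen, was at 7.62 and 8.40 in KO hearts, against 8.41, 8.33 and 8.01 in control hearts. KO replicate 1 was below all controls and KO replicate 2 was among them. The difference was -0.24 ± 0.29 (SE), with an interval of -1.03 to 0.55 and an adjusted p of 0.718 in limma. Its direction rests on KO replicate 1: without that array the difference was 0.15, and without KO replicate 2 it was -0.63.

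Mmp2, gelatinase A, which is made largely by mesenchymal cells, was at 7.60 and 7.92 in KO hearts and at 8.17, 7.83 and 7.54 in control hearts. The controls alone spanned more than the KO arrays did, and the difference was -0.08 ± 0.23 (SE, interval -0.71 to 0.55, adjusted p 0.883 in limma). That sign turned without KO replicate 1 (0.07) and without control replicate 1 (0.08), and the difference was -0.24 without KO replicate 2. Mmp9, gelatinase B, an enzyme of neutrophils, macrophages and invading cells, was dim on each array, at 3.90 and 3.96 in KO hearts and 3.90, 3.90 and 4.27 in control hearts. It was low also in KO replicate 1, the array with the higher mean of macrophage and myeloid markers. That list was mixed: Tyrobp was at 7.65 in KO replicate 1, against 4.85 to 5.09 in control hearts, while C1qa was at 4.85 there, against 5.13 to 5.42 in control hearts, and Cd68 lay within the control range.

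On 3 tested members, all chosen after their values were seen, 1 KO array lay above and the other below every control. Mmp11, which furin activates inside the cell, was at 4.88 in KO replicate 1 and 5.70 in KO replicate 2, against 5.37, 5.34 and 5.02 in control hearts. Mmp16, a membrane-type MMP, was at 5.51 and 6.07 on the KO arrays, against 5.92, 5.91 and 5.67 on the control arrays. Adamts10 was at 5.64 and 6.25 in KO hearts, against 5.88, 5.88 and 5.76 in control hearts. In each, KO replicate 1 was the lower, as it was for Mmp14, Mmp2, Timp1, Timp2 and Timp3. This pattern was seen in 10.3% of the tested members, beside 11.5% of all tested genes.

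The KO arrays were also compared with each other. KO replicate 1 was lower than KO replicate 2 for 17 tested members and higher for 8, while over all tested genes the counts were 6146 and 6113. The median gap between the KO arrays was 0.22 for the members and 0.15 for all tested genes, and the median range of the 3 controls was 0.17 and 0.15. The gap exceeded the control range for 16 members (55.2%), beside 48.6% of all tested genes. The median shift of the 10 tested Mmp genes from the control mean was -0.14 in KO replicate 1 and 0.11 in KO replicate 2, and -0.11 to 0.07 in controls. That of the 12 tested Adamts genes was -0.02 in KO replicate 1 and within 0.01 of 0 on the other arrays. The cushion mesenchyme list shifted by -0.60 and -0.11 on the KO arrays, and its part in the gap was not tested.

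**Figure D2:**
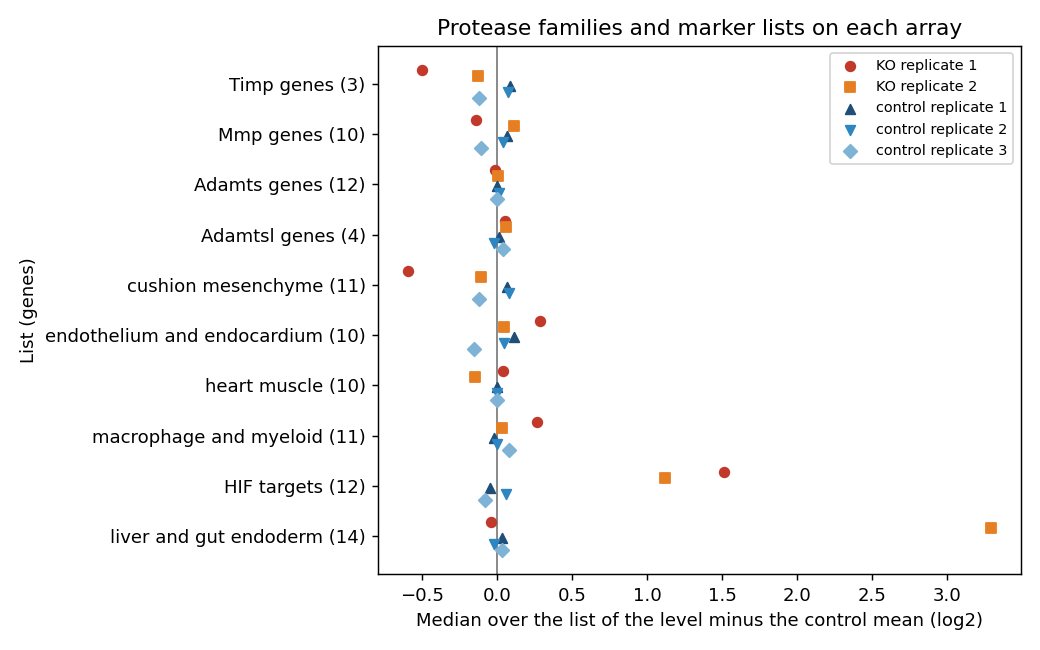
Median over each list of the level minus the control mean (log2), for each array, with the number of genes in brackets. KO replicate 1 is lowest for the Timp genes (-0.50) and the cushion mesenchyme markers (-0.60), while endoderm markers lie far above the controls in KO replicate 2 only (3.30) and HIF targets on both KO arrays (1.51 and 1.12).

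As a family, the members were not called more often than other genes. In limma, 0 of the 29 tested members had an adjusted p under 0.05, and so did 0% of all tested genes. At an unadjusted p under 0.05 there was 1 member, Adamts9, or 3.45%, beside 8.78% of all tested genes. For a higher level at that p the count was 1 member beside 3.29% of all tested genes, and for a lower level 0 members beside 5.49%. No member reached a 1.5-fold difference in either direction, against 3.34% of all tested genes.

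Groups did not overlap for 4 tested members, or 13.8%, beside 21.3% of all tested genes. Adamts9 was higher on both KO arrays (a pattern held by 8.18% of all tested genes), and Timp1, Timp2 and Mmp24 were lower on both (13.1%). Mmp24, a membrane-type MMP known mostly from neural tissue, was at 4.84 and 4.91 in KO hearts, against 4.98, 5.11 and 4.94 in control hearts. By sign alone 14 members were higher, 13 lower and 2 equal. The median difference was 0 for the members and -0.02 for all tested genes, and the median absolute difference was 0.11 for both. With 2 arrays against 3 an exact permutation test cannot give a p below 0.1, so the limma fit across genes was the test.

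**Figure D3:**
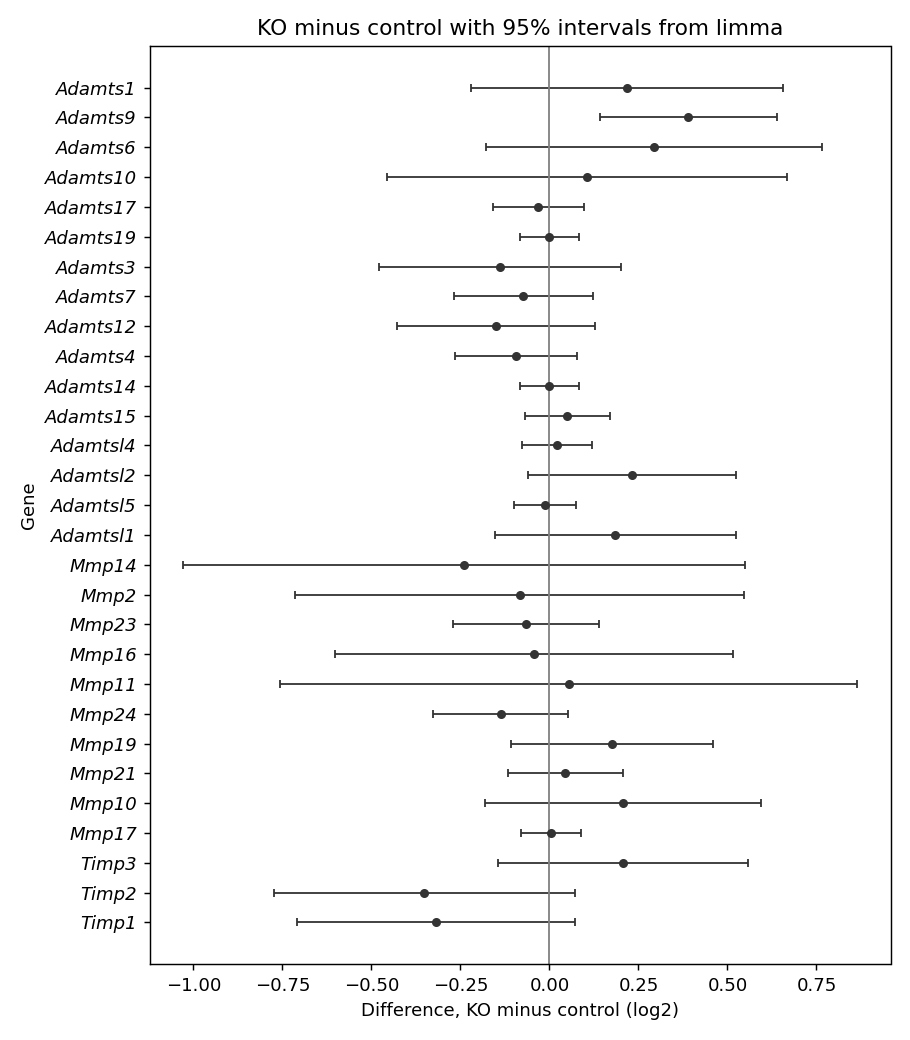
Difference KO minus control (log2) of each tested member, with its 95% interval from limma. The interval of Adamts9 (0.14 to 0.64) alone excludes 0, and that of Mmp14 (-1.03 to 0.55) is among the widest.

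The upstream sequence of Adamts9, Timp1 and Timp2, whose groups did not overlap, is shown because the study asks about low oxygen. The hypoxia-inducible factors bind a short core of letters, ACGTG or GCGTG. On the HIF target list of these hearts, all 12 listed targets had higher means in KO hearts, with a median difference of 1.29. In limma 11 of them had an unadjusted p under 0.05, beside 3.29% of all tested genes with a higher level at that p. The list was chosen with earlier results of these data known, so it is no independent test. An adjusted p under 0.05 was reached by 0 of the 12. RefSeq windows of GRCm38.p6, from 250 bases before a gene's start to 50 after it, were found for 34 of the 49 members. Mmp24, the other tested member without overlap, held neither core in its window and is not printed. The 250 bases before the start are printed for Adamts9, Timp1 and Timp2, with ACGTG and GCGTG, on either strand, in capitals.
Adamts9 (chr6:92943535-92943784, minus strand): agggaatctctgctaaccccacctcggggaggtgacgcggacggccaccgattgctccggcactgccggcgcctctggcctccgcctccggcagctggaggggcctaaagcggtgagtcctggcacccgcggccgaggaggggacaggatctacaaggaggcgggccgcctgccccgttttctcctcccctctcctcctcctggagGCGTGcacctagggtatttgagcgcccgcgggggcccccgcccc
Timp1 (chrX:20869916-20870165, plus strand): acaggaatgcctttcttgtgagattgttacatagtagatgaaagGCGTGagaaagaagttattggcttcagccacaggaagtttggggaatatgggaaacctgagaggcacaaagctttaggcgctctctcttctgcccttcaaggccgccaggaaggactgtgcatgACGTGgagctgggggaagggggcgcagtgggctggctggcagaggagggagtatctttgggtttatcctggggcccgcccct
Timp2 (chr11:118355412-118355661, minus strand): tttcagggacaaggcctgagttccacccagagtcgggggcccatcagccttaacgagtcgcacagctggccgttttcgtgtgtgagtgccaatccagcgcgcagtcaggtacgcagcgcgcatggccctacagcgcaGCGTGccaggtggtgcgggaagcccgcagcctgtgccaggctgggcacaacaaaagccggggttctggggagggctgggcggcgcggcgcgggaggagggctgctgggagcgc

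Adamts9 and Timp2, whose differences had opposite signs, each had 1 GCGTG and no ACGTG in this stretch. Timp1 had 1 GCGTG and 1 ACGTG, and the ACGTG began 82 bases before the start. Of the 3 stretches those of Adamts9 and Timp2 were rich in G and C (71.2% and 68.0%), and that of Timp1 less so (54.4%). In whole windows on both strands, ACGTG stood in 8 of 37 windows of the members (21.6%) and in 19.6% of all 32851 promoter windows. GCGTG stood in 14 windows of the members (37.8%) and in 32.4% of all windows. The members with ACGTG were Adamts3, Adamts17, Adamts18, Adamts20, Mmp7, Mmp14, Mmp27 and Timp1. Such letters are a description of the sequence and were not tested against binding.

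Most dim MMP genes lie side by side. In the RefSeq table of GRCm38.p6, 10 of the 22 Mmp members form an unbroken row of protein-coding genes on chromosome 9, in the order Mmp13, Mmp12, Mmp1b, Mmp3, Mmp1a, Mmp10, Mmp8, Mmp27, Mmp20 and Mmp7. They encode collagenases (Mmp13, Mmp8 and Mmp1a), stromelysins (Mmp3 and Mmp10), macrophage elastase (Mmp12), the enamel protease (Mmp20) and matrilysin (Mmp7). Of these 10 genes 9 were dim, with mean levels of 2.47 to 3.72. The tenth, Mmp10, was at 4.43 and 4.77 in KO hearts, against 4.43, 4.50 and 4.26 in control hearts, a difference of 0.21 ± 0.14 (SE, interval -0.18 to 0.59). Of the 12 Mmp genes elsewhere 3 were dim (Mmp9, Mmp25 and Mmp28).

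The promoters of this row differ in sequence from those of the other members that have a window. AP-1, the Fos and Jun dimer induced by growth signals and stress, binds TGAGTCA and its reverse TGACTCA, and a TATAAA box fixes the start of many inducible genes. For the 7 genes of the row that hold both, the stretch between them is printed with these letters in capitals.
Mmp13 (chr9:7272471-7272511, plus strand): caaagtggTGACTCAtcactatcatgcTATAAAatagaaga
Mmp12 (chr9:7347322-7347391, plus strand): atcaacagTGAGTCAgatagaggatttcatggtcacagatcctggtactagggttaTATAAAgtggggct
Mmp1b (chr9:7388062-7388127, minus strand): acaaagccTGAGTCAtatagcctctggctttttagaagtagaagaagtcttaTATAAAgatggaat
Mmp3 (chr9:7445768-7445828, plus strand): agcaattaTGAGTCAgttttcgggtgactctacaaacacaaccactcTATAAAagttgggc
Mmp1a (chr9:7464060-7464126, plus strand): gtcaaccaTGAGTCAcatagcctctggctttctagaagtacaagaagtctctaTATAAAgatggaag
Mmp10 (chr9:7502271-7502326, plus strand): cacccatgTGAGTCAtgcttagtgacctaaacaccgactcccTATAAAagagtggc
Mmp7 (chr9:7691959-7692077, plus strand): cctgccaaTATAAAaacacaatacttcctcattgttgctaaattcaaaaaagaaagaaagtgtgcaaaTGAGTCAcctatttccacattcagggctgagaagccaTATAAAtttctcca

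The AP-1 letters began between 35 (Mmp13) and 93 bases (Mmp1b) before the annotated start. The TATAAA letters nearest the start began 28, 29 and 26 bases before it in Mmp1a, Mmp10 and Mmp7. In Mmp1b, Mmp13 and Mmp3 they began 49, 16 and 7 bases before it, and in Mmp12 past it (-4 on that count). Whether these letters fix the start of the 7 genes was not tested. Mmp1a and Mmp1b carry similar stretches, and probes of such close copies may not be told apart. Both motifs stood in 7 of 12 windows of the row (58.3%), in 0 of 25 windows of the other members and in 0.941% of all windows. The windows of the row are not independent, as Mmp1a and Mmp1b are similar and Mmp12 and Mmp7 have several windows each. Windows were found for all 10 genes of the row, but not for 15 of the other members, among them Mmp2 and Mmp9. AP-1 letters alone were in 5.2% and TATAAA in 13.6% of all windows, searched on both strands. The median content of G and C was 41.7% in the row, 64.7% in the other members and 52.7% in all windows. Levels of the 7 genes with both motifs did not separate the groups on these arrays, and 6 of them were dim.

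**Figure D4:**
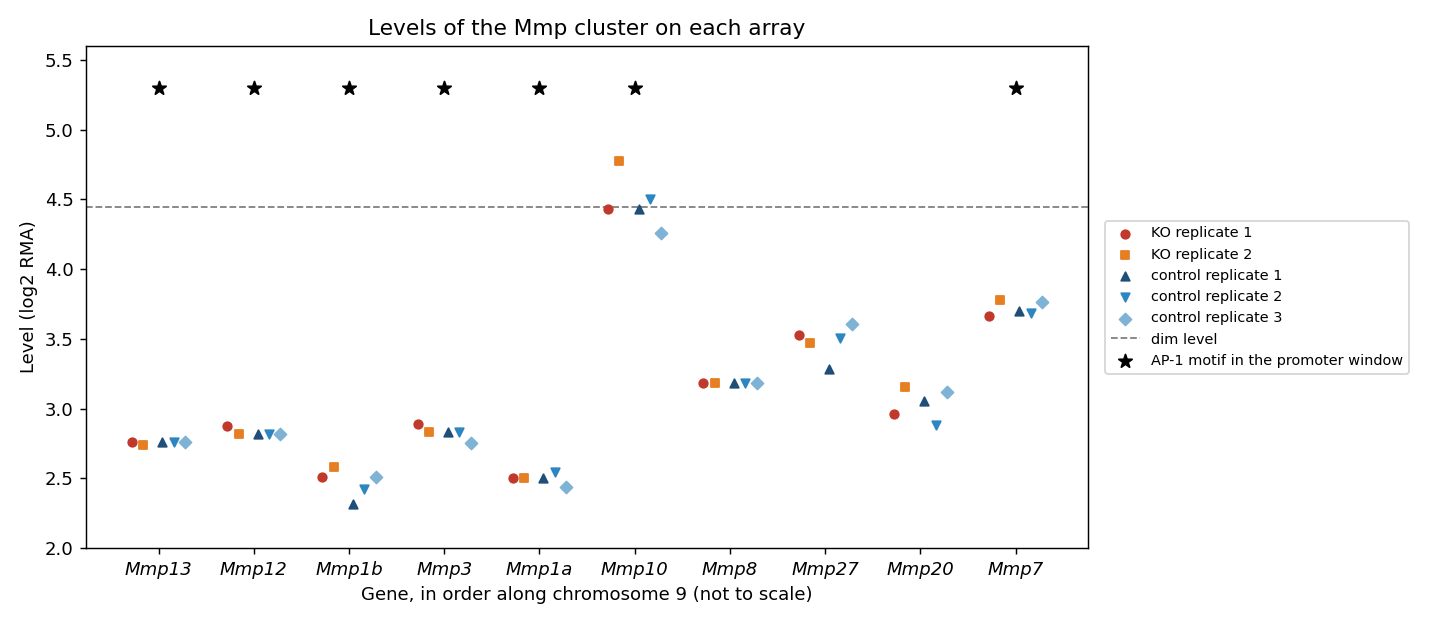
Level (log2 RMA) on each array of the 10 Mmp genes of the chromosome 9 row, in gene order and not to scale, with a star where the promoter window holds an AP-1 motif. Mmp10 alone reaches the dim level of 4.44 (dashed), and Mmp13 to Mmp1a stay below 2.9 on all 5 arrays.

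The other dim members were Adamts5, Adamts8, Adamts13, Adamts16, Adamts18, Adamts20, Adamtsl3, Mmp9, Mmp25, Mmp28 and Timp4, with mean levels of 3.36 to 4.19. Adamts13, which cuts von Willebrand factor, was at 3.65 and 3.64 in KO hearts and at 3.65 on each control array. Adamts18, with 1 KO array on either side of the controls as also for Mmp7, was at 3.63 and 4.39 in KO hearts and at 4.25 on each control array. At these levels a difference between groups may lie beneath what the probe sets can show.

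Partners of these enzymes were read from lists of other proteases, activators, inhibitors and substrates. Among 13 other inhibitors, cofactors and clearance receptors, 8 were tested, of which 5 had higher and 3 lower means in KO hearts, with a median of 0.18. A2m, the broad protease trap alpha-2-macroglobulin, was at 7.60 and 6.26 in KO hearts, against 5.38, 5.24 and 5.18 in control hearts. Both KO arrays lay above all controls, and KO replicate 1, whose endoderm markers were near the control level, was the higher. The part of endoderm tissue in the A2m values was not tested. The difference was 1.66 ± 0.44 (SE, interval 0.45 to 2.87), with an unadjusted p of 0.019 and an adjusted p of 0.459 in limma.

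Bsg, or basigin, a membrane glycoprotein that induces MMPs in neighbouring cells and partners lactate transporters, was at 11.15 and 10.68 in KO hearts, against 10.26, 10.33 and 10.52 in control hearts. It too did not overlap, with a difference of 0.55 ± 0.18 (SE), an unadjusted p of 0.036 and an adjusted p of 0.539 in limma. Reck, a membrane-anchored MMP inhibitor, overlapped between the groups, with a difference of 0.36 and an interval of -0.32 to 1.04.

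In the proprotein convertases, which remove the inhibitory propeptides of ADAMTS enzymes and membrane MMPs, 1 of the 4 tested had an unadjusted p under 0.05. This was Pcsk6, at 5.62 and 5.58 in KO hearts, against 5.69, 5.80 and 5.81 in control hearts (difference -0.17 ± 0.06, SE, adjusted p 0.543 in limma). Among 10 tested substrates and fibrillin partners 4 were higher and 6 lower, and only Mfap5, a microfibril protein, had an unadjusted p under 0.05 (-0.20 ± 0.07, SE, adjusted p 0.541 in limma).

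No gene of the remaining lists reached an unadjusted p under 0.05 in limma. For the listed genes of the ADAM family, not all of which encode active proteases, 5 of 11 tested were higher and 6 lower. Adam11 had the smallest p (difference -0.26, unadjusted p 0.154 in limma). For the cathepsins and cystatins, 5 of 9 were higher and 4 lower, with Ctsk, a collagen-cutting cathepsin, at -0.28 (unadjusted p 0.056). For the astacin proteases and enhancers, 2 of 4 were higher and 2 lower, with the procollagen C-proteinase Bmp1 at -0.23 (unadjusted p 0.124). Pofut2 and B3glct, which build the O-linked fucose glycan of ADAMTS proteins, had lower means in KO hearts. The differences were -0.26 for Pofut2 (unadjusted p 0.125 in limma) and -0.11 for B3glct. In each, KO replicate 1 alone lay below all controls, and KO replicate 2 equalled the lowest control (7.46 for Pofut2 and 7.17 for B3glct).

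Of 5 tested genes of the plasminogen system 3 were higher and 2 lower, and Plgrkt had the smallest p (difference -0.28, unadjusted p 0.13). Serpinf2, the plasmin inhibitor made by liver, was at 8.68 in KO replicate 2 and 3.63 in KO replicate 1, against 3.36 to 3.63 in control hearts. Plg, the plasmin precursor, was at 6.35 in KO replicate 2 and 3.44 on each other array. Both were high on the array that also carried Afp at 11.42, and the part of endoderm tissue in these values was not tested.

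**Figure D5:**
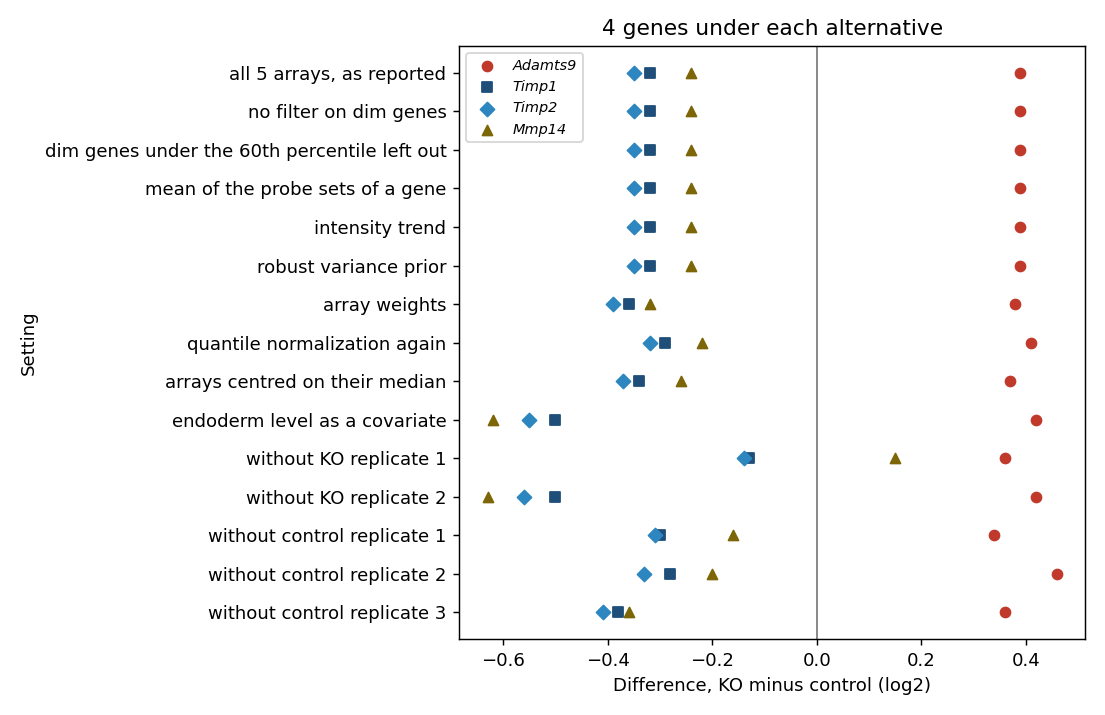
Difference KO minus control (log2) of Adamts9, Timp1, Timp2 and Mmp14 under each setting. Adamts9 lies between 0.34 and 0.46 in all of them, while Timp1, Timp2 and Mmp14 change most when either KO array is left out.

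The choice of KO array set the counts of members. Without KO replicate 2 there were 6 members with an unadjusted p under 0.05 in limma (20.7%, beside 27.3% of all tested genes), of which 2 were higher and 4 lower. They were Adamtsl2 and Adamts15, higher, and Timp1, Timp2, Adamts7 and Adamts12, lower. Adamts12 alone passed the adjusted threshold there (-0.30, adjusted p 0.0289, beside 7.04% of all tested genes), and its adjusted p over its 13 alternatives ran from 0.0289 to 1. That fit has a lone KO array, assumed to vary like the controls, and the 3 control values of Adamts12 were identical. Without KO replicate 1 the members with an unadjusted p under 0.05 were Adamts10 (0.41) and Mmp19 (0.32), both higher, or 6.9% beside 17% of all tested genes.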

How the data were processed

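Total RNA of 2 KO and 3 control heart samples at E10.5 was amplified, biotin-labelled and hybridised to Affymetrix arrays, per the labels' protocols. The authors deposited log2 expression levels for the whole series, made with Affymetrix Expression Console and RMA per the submitters' processing notes, with versions and settings not given in the sources used here. RMA gives all arrays nearly the same distribution, so a shift common to most genes would not be seen. Array medians were 5.07 to 5.11, and 5 arrays allow only limited precision.

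Of 24479 probe sets, 23281 carried 1 gene symbol, 0 several and 1198 none. Entrez numbers of 23156 were found in a RefSeq table of GRCm38.p6, which gave current symbols, and the members' symbols were unchanged. The brightest probe set of a gene was kept. The 13967 genes at or above the 40th percentile of mean level were fitted in limma 3.58.1 (under R 4.3.3) by a linear model with a moderated two-sided test and no covariate, with Benjamini-Hochberg adjustment over all of them and a threshold of 0.05. Intervals are 95% and come from the same fit. The fit was tested on simulated data. Some genes of the marker and partner lists are not reported here.

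The members, lists, motifs and alternatives were chosen with earlier results of these data known. Values on every array are given for the Timps, for Adamts1, Adamts4, Adamts5, Adamts9, Adamts15, Adamts20, Mmp2, Mmp9 and Mmp14, for the 6 brightest members and for members with an unadjusted p under 0.05. In partner lists, genes under that p, or else the smallest p, are named, and any other gene with values was chosen after they were seen. The GCGTG, AP-1 and TATAAA searches were added after the data were seen. Promoter sequences are RefSeq's. The 14 alternatives concerned the dim filter, probe sets, variance prior, array weights, normalization, centring, an endoderm covariate and leaving out each array.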

Additional observations from a re-analysis of the deposited data

How the results depend on the processing

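The count of members past the adjusted threshold in limma, 0, was 1 with an endoderm covariate and 0 to 1 when an array was left out. The endoderm level is high in KO replicate 2 alone, so that fit nearly repeats leaving it out. The count of members higher at an unadjusted p under 0.05, 1, was 2 with no filter on dim genes, 0 with array weights, 2 with the endoderm covariate and 1 to 2 when an array was left out. The count of lower members, 0, was 2 with arrays centred on their median (Timp1 and Timp2), 4 with the endoderm covariate and 0 to 4 when an array was left out. Without KO replicate 1 or without KO replicate 2 the higher count was 2, and without KO replicate 2 the lower count was 4. Over all tested genes, 983 passed the adjusted threshold without KO replicate 2, 9 without KO replicate 1 and 872 with the endoderm covariate. Of the 9 named members tested, 7 kept their direction under each alternative run for them, 13 for Adamts4 and Adamts15, which lie under the 60th percentile, and 14 for the other 5. Mmp2 turned to 0.07 without KO replicate 1 and 0.08 without control replicate 1, the lowest value being -0.24 without KO replicate 2. Mmp14 turned to 0.15 without KO replicate 1, with a lowest value of -0.63 without KO replicate 2. The cause of these changes was not tested. No paired analysis was possible because the labels give no replicate numbers shared between the groups. Signal over background could not be judged per probe from the deposited summaries, so differences among dim members, such as Timp4 and Adamts5, are bounded by an unknown floor.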
